A study of Mus musculus with 24 samples.

Results

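The mature mouse retina was compared with the newborn retina in 8 of the 24 RNA sequencing libraries of a developmental series. The mature pool held the 2 libraries of postnatal day 21 (P21) and the 2 of postnatal day 28 (P28), and the newborn pool held the 2 libraries of the day of birth (P0) and the 2 of postnatal day 2 (P2). Each pool therefore had 4 libraries from 2 ages, and the 16 libraries of the other ages entered only the scaling and the description of the days between. All 8 were made from excised retinas of strain C57/Bl6N that had been frozen before total RNA was isolated, and the labels name no treatment and no altered allele. Libraries were directional and started from 1 µg of RNA, selected for polyadenylated messages. The labels do not say whether the 2 libraries of an age came from separate animals, litters or pools. The p-values therefore measure only the spread between these libraries. Between pools that spread joins the difference between the 2 ages of a pool with that between libraries of an age, and the latter may be technical.

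The retina is the light-sensing tissue at the back of the eye. In the newborn mouse, dividing progenitor cells still sit beside ganglion cells, horizontal cells, cones and many amacrine cells that were formed before birth. After birth the last divisions give most of the rods, the bipolar cells and the Müller glia, the synaptic layers are built, the photoreceptors grow their outer segments, and the eyes open. In the mature mouse retina rods are by far the most numerous cells. They sense light when an activated opsin switches on the G protein transducin, which activates a phosphodiesterase that breaks down cyclic GMP, so that channels held open by cyclic GMP close. In bulk RNA a gene's level is its share of the RNA of the whole tissue, so fewer cells of a type and less RNA per cell cannot be told apart.

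Library totals ran from 24567685 to 30221490 estimated counts in the newborn pool and from 30696108 to 35899114 in the mature pool. Levels are given in CPM, the count relative to the total of its library, after scaling by the trimmed mean of M values, and changes are mature minus newborn on the log2 scale. The 10 most abundant genes took 3.83 to 4.57% of the counts in the newborn and 8.95 to 11.21% in the mature libraries, and mitochondrial genes took 2.86 to 3.96% and 3.93 to 5.33%. The deeper mature libraries held 16071 to 16208 genes at 1 CPM or more, against 15454 to 15573 in the newborn libraries. The 2 libraries of an age differed by more than sampling noise, with a chi-square per gene of 9.79 at P21 and 21.04 to 21.81 at the other ages.

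The labelled ages were checked against genes that define the cells of each age. Mki67, a marker of cells in the division cycle, stood at 1262 and 1402 CPM at P0, 1094 and 1049.6 at P2, 0.0997 and 0 at P21, and 0.0574 and 0.116 at P28. Gnat1, the alpha subunit of rod transducin, stood at 4.03 and 3.94 CPM at P0, 5.69 and 5.44 at P2, 7775 and 7722 at P21, and 6069 and 6371 at P28. Every newborn library was thus high in the division marker and low in the rod gene, every mature library was the reverse, and no library lay between. Lists of genes for other tissues were read in the same way, and those that moved are given with the vessels, the lens and the pigment epithelium.

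The pools differed in a large part of the genes measured. Of 19278 genes tested, 3950 (20.5%) were called higher and 3335 (17.3%) lower in the mature pool, where a call asks for an edgeR quasi-likelihood adjusted p under 0.05 and a change of at least 2-fold. A change of at least 4-fold was found among the calls in 1781 higher and 1294 lower genes, and one of at least 16-fold in 490 higher and 333 lower genes. The median size of the change over all tested genes was 0.75 on the log2 scale. For 5911 genes (30.7%) all 4 mature libraries lay above all 4 newborn libraries, and for 5918 (30.7%) all 4 lay below. Of the called genes, 3796 of the higher and 3225 of the lower ones had pools that did not overlap. No read was counted in the newborn pool for 29 of the called genes, and none in the mature pool for 18.

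**Figure D1:**
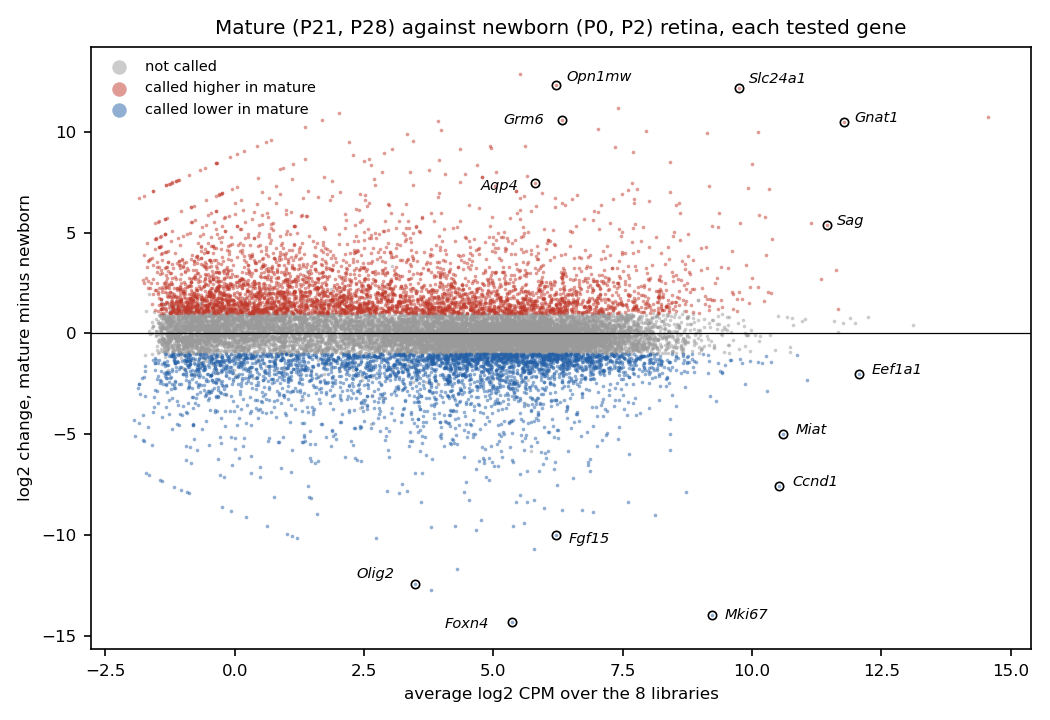
Log2 change from newborn to mature against the average log2 CPM for each of the 19278 genes tested, with called genes coloured and some named genes circled. Opn1mw, Slc24a1, Grm6 and Gnat1 lie highest among the circled genes, with Slc24a1 at 12.203 and Gnat1 at 10.52, and Foxn4 and Mki67 lowest, with Mki67 at -13.99; the heights of Opn1mw and Foxn4 rest on 3 counts or fewer in 1 pool.

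The gains in absolute level were led by genes of the photoreceptor outer segment. Sag, the arrestin that shuts off the light-activated rod opsin, stood at 72.0 and 71.6 CPM at P0, 168 and 216 at P2, 5932 and 5659.6 at P21, and 4604 and 5549 at P28 (log2 change 5.37, SE 0.40, edgeR adjusted p = 1.11e-06). Its lowest mature library lay far above its highest newborn library. Gnat1 (chr9:107674474-107679712) rose from 4.78 ± 0.921 to 6984 ± 892 CPM (SD, n = 4 libraries; log2 change 10.52, SE 0.24, edgeR adjusted p = 7.05e-10). Gnb1, the beta subunit of the same transducin and of other G proteins, was already abundant at birth and rose from 639.7 ± 88.1 to 5681 ± 355 CPM (log2 change 3.15, SE 0.14, edgeR adjusted p = 2.54e-08). Gngt1, the gamma subunit, was chosen after its values were seen and rose from 8.75 ± 5.22 to 766 ± 210.2 CPM (log2 change 6.45, SE 0.50, edgeR adjusted p = 3.77e-06). Gnat1 and Gngt1 thus started low, whereas Gnb1 did not. Prph2, a structural protein of the outer segment discs, rose from 97.7 ± 60.3 to 4404 ± 594 CPM. Rbp3, the retinoid carrier between photoreceptors and pigment epithelium, rose from 688 ± 188 to 4452 ± 523 CPM. Grk1, the kinase that marks the activated opsin for arrestin, rose from 17.9 ± 3.84 to 2562 ± 111 CPM. Rp1, a protein of the photoreceptor axoneme, rose from 98.8 ± 31.4 to 2583 ± 373 CPM. Both catalytic subunits of the rod phosphodiesterase were among the 10 largest gains, Pde6b from 43.0 ± 24.1 to 2401 ± 148 CPM. Pde6a rose from 2.21 ± 0.997 to 2229.6 ± 212 CPM. In each of these genes the 4 mature libraries lay above the 4 newborn libraries.

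By ratio the leading rises joined rods, cones, bipolar cells and glia. Slc24a1, the sodium-calcium exchanger of rods (chr9:64922861-64951607), stood at 0.286, 0.189, 0.468 and 0.512 CPM in the newborn libraries and at 1868, 1763, 1574 and 1655 CPM in the mature libraries (log2 change 12.203, SE 0.28, edgeR adjusted p = 6.70e-10). Opn1mw, the middle wavelength cone opsin (chrX:74127464-74150760), had 3 counts in the whole newborn pool and stood at 144, 133, 178 and 142 CPM in the mature libraries (edgeR adjusted p = 9.89e-10), and with so few newborn counts no ratio is given. Guca1b, an activator of guanylate cyclase in photoreceptors, rose from 1.16 ± 0.377 to 1121 ± 106 CPM (log2 change 9.93, SE 0.24, edgeR adjusted p = 8.38e-10). Kcnj14, an inward rectifier potassium channel, stood at 0.390 to 0.512 CPM in the newborn and 425 to 549 CPM in the mature libraries, and Pdzph1 at 0 to 0.312 CPM in the newborn and 280.3 to 436 CPM in the mature libraries (edgeR adjusted p = 6.70e-09). The newborn levels of these genes were all below 3 CPM, so their rises started from low levels.

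Of the 16 genes of the rod list, which holds rod phototransduction genes and the transcription factors of rods, 15 were called higher and none lower, with a median log2 change of 6.12 against 0.01 over all genes tested. Cnga1, a subunit of the rod channel gated by cyclic GMP, stood at 0.476 and 0.662 CPM at P0, 23.4 and 27.3 at P2, 1392 and 1309 at P21, and 2324 and 2647 at P28. It rose within the newborn pool from under 1 CPM to over 20, and its mature values at P28 lay above those at P21. Nrl, the transcription factor that sets the rod fate, stood at 79.1 and 88.2 CPM at P0, 178 and 209 at P2, 1376 and 1272 at P21, and 1309.5 and 1393 at P28 (log2 change 3.27, SE 0.31, edgeR adjusted p = 6.00e-06). The 1 member not called was Nr2e3, the nuclear receptor that represses cone genes in rods, which stood at 100.6 and 95.3 CPM at P0, 394 and 450.3 at P2, 654 and 592 at P21, and 508 and 488 at P28 (log2 change 1.11, SE 0.52, edgeR adjusted p = 0.0917). Its pools did not overlap, but P2 was close to the mature values and P0 was not, and without P2 replicate 2 it was called (log2 change 1.51, edgeR adjusted p = 0.0404). Over all the alternative settings given at the end, the log2 change of Nr2e3 ran from 0.41 to 2.52, and it gained the call in 6. Crx and Otx2, transcription factors that act upstream of rod genes, differed in direction. Crx, which activates photoreceptor genes, stood at 357 and 334 CPM at P0, 671 and 775 at P2, 1239 and 1194 at P21, and 1089.7 and 1029 at P28 (log2 change 1.09, SE 0.26, edgeR adjusted p = 0.0036). That change was under 2-fold without P0 replicate 1 (0.94) or P0 replicate 2 (0.92). Otx2, needed earlier to make photoreceptors, stood at 383 and 492 CPM at P0, 793 and 895 at P2, 255 and 252 at P21, and 236 and 216 at P28 and was lower in the mature pool (log2 change -1.42, SE 0.24, edgeR adjusted p = 3.94e-04). Against P0 alone the change of Otx2 was -0.87, under 2-fold.

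**Figure D2:**
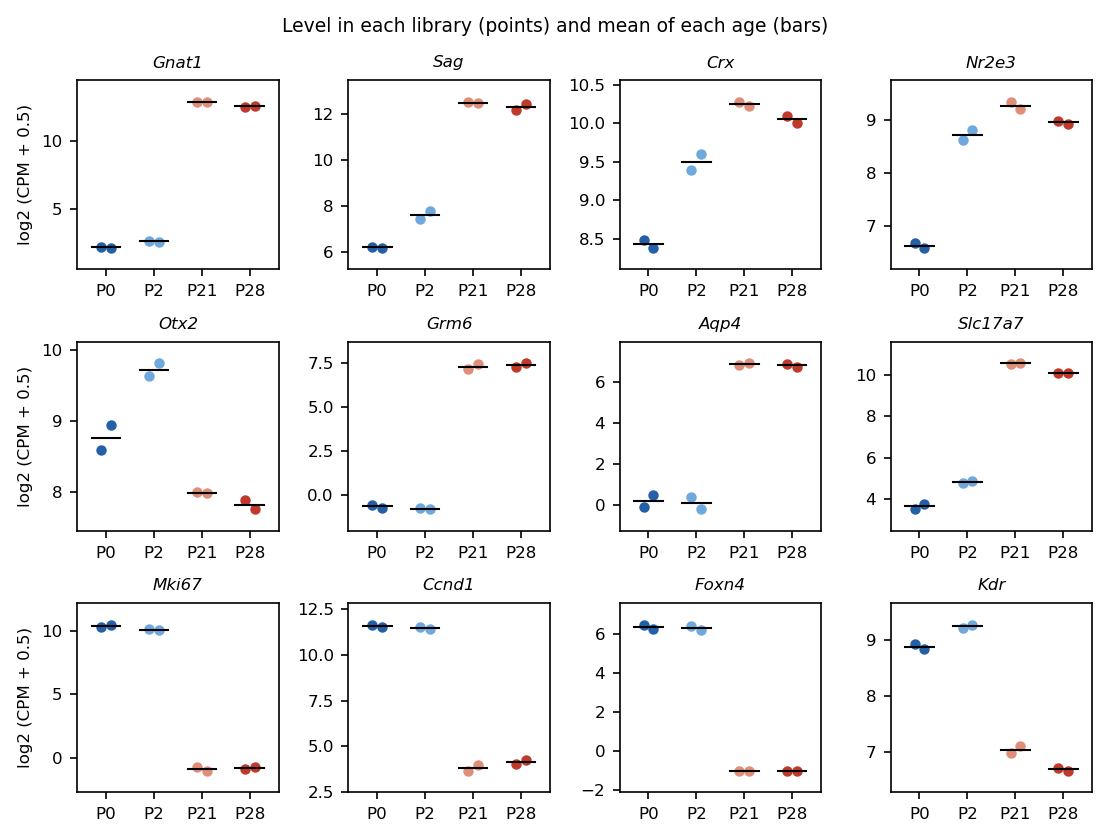
Level of 12 genes in each of the 8 libraries as log2 of CPM + 0.5 (points, by age; the bars are the means of the 2 libraries of an age; each panel has its own axis). Gnat1, Sag, Grm6, Aqp4 and Slc17a7 are high in the mature libraries, Mki67, Ccnd1, Foxn4 and Kdr in the newborn libraries, and Crx, Nr2e3 and Otx2 also differ between P0 and P2.

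Of 30 genes shared by rods and cones or acting in the recovery from light, 29 were called higher and 1, Otx2, lower, with a median log2 change of 4.67. Their summed level was 2803 to 5191 CPM in the newborn and 35222 to 38075 CPM in the mature libraries. Gucy2f, a guanylate cyclase that restores cyclic GMP, rose from 0.816 ± 0.501 to 416 ± 31.6 CPM (log2 change 8.99, SE 0.35, edgeR adjusted p = 1.29e-08), and Guca1a, its calcium-sensing activator, rose from 2.32 ± 1.72 to 409.6 ± 64.0 CPM (log2 change 7.47, SE 0.55, edgeR adjusted p = 3.25e-06). Both partners of the enzyme thus rose, Guca1b included.

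The cone list was less uniform, with 10 of 15 members called higher, 2 lower and a median of 2.77. The count called lower was near the share over all genes tested (17.3%). Arr3, the cone arrestin, stood at 1.40 and 2.02 CPM at P0, 3.63 and 4.77 at P2, 351 and 346 at P21, and 328 and 404 at P28 (log2 change 6.92, SE 0.36, edgeR adjusted p = 1.04e-07). Kcne2, a potassium channel subunit, stood at 0.347 to 1.601 CPM in the newborn and 45.2 to 60.4 CPM in the mature libraries (log2 change 6.24, SE 0.43, edgeR adjusted p = 7.54e-07, or 7.11 without P2 replicate 2). Opn1sw, the short wavelength cone opsin, chosen after its values were seen, stood at 108 and 151 CPM at P0, 122 and 134 at P2, 535 and 472 at P21, and 418 and 393 at P28 (log2 change 1.82, SE 0.14, edgeR adjusted p = 9.50e-07). The cone opsins therefore differed at birth, where the short wavelength opsin was already above 100 CPM in each library and the middle wavelength opsin was nearly without counts. The 2 members called lower, named because the count is small, as elsewhere below, were Gngt2 (log2 change -1.07), the gamma subunit of cone transducin, and Rxrg (-1.53), a nuclear receptor of developing cones. The change of Gngt2 was under 2-fold without P2 replicate 1 (-0.97), P2 replicate 2 (-0.89) or P21 replicate 2 (-0.999). The 3 not called were Gnb3, Cnga3 and Cngb3, at log2 changes of 0.70, 0.18 and -0.24, of which Cnga3 and Cngb3 form the cone channel gated by cyclic GMP.

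Most members of the photoreceptor lists were called higher, 54 in all, and the promoters of those were searched for TAATCC, a core sequence bound by homeodomain factors of the Crx and Otx2 type, on both strands. In the RefSeq promoter table (build GRCm38.p6; the 250 bases before the start site), 41 of the 54 photoreceptor genes called higher were found, with 49 promoters. TAATCC was in 18 of the 49 (36.7%), against 2054 of all 32851 promoters (6.25%). It was in 3 of 19 promoters of the bipolar genes called higher (15.8%), in none of 26 of the mitosis genes called lower, in 1 of 29 of the replication genes (3.45%) and in 1 of 31 of the ribosomal protein genes (3.23%). The promoters of Sag at chr1:87803430-87803679 (plus strand), of Rbp3 at chr14:33953753-33954002 (plus strand) and of Gucy2f at chrX:142196937-142197186 (minus strand) are shown as examples of genes named for their rise, 5′ to 3′, with the match in capitals, where GGATTA is TAATCC on the other strand:
Sag: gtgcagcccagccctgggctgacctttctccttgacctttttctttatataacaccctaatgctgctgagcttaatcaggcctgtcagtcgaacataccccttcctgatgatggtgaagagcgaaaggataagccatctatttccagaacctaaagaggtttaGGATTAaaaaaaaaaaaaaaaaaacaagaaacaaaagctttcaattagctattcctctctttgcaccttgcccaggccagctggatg
Rbp3: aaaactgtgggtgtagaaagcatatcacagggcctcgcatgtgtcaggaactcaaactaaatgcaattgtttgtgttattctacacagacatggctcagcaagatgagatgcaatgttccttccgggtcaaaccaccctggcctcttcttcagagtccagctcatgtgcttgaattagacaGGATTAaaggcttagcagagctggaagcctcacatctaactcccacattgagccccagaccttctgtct
Gucy2f: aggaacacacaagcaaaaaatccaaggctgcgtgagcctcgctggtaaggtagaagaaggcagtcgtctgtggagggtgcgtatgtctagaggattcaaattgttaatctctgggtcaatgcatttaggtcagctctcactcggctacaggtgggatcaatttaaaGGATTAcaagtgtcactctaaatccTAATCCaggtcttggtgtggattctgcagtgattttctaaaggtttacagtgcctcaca
The match starts 87 bases before the start site in Sag and 69 in Rbp3, and Gucy2f has 2, at 84 and 59 bases. A match is a description of the sequence, and binding was not measured here.

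Bipolar cells carry the signal from photoreceptors to the inner retina, and ON bipolar cells sense glutamate through the receptor Grm6. Of 21 bipolar genes 17 were called higher and none lower, with a median log2 change of 4.37. Grm6 stood at 0.159, 0.0945, 0.0780 and 0.0641 CPM in the newborn libraries and at 139, 171, 156 and 176 CPM in the mature libraries (log2 change 10.59, SE 0.21, edgeR adjusted p = 6.54e-10). Cacna1s, a calcium channel subunit, and Bhlhe23, a transcription factor of rod bipolar cells, each had 1 to 3 counts over the newborn pool. Cacna1s stood at 35.2, 33.4, 27.7 and 25.5 CPM in the mature libraries (edgeR adjusted p = 2.96e-09), and Bhlhe23 at 19.3, 18.9, 21.09 and 20.8 CPM in the mature libraries (edgeR adjusted p = 3.29e-09). In none of these genes did a newborn library reach 1 CPM. The 4 not called were Isl1 (log2 change 0.72), Gnao1 (0.96), Irx6 (-0.33) and Lhx4 (0.08). Isl1 and Gnao1 are also used by ganglion or amacrine cells, and Gnao1 stood at 174 to 271 CPM in the newborn and 356 to 484 CPM in the mature libraries and was called without P2 replicate 1 (1.07), P2 replicate 2 (1.05) or P28 replicate 2 (1.04).

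Müller glia span the retina, clear glutamate and water, and share genes with the progenitors they come from. Of 15 Müller genes 10 were called higher and 1 lower, with a median of 1.77. Aqp4, the water channel of their end feet, stood at 0.444, 0.914, 0.819 and 0.384 CPM in the newborn libraries and 109, 117, 114 and 105 CPM in the mature libraries (log2 change 7.45, SE 0.24, edgeR adjusted p = 2.97e-09). Abca8a, a lipid transporter, rose from 0.218 ± 0.410 to 261 ± 9.40 CPM (log2 change 10.16, SE 0.73, edgeR adjusted p = 3.63e-06), with 0.833 CPM in P2 replicate 2 and at most 0.0390 in the other newborn libraries, and its change was 14.06 without that library. Clu, a secreted chaperone, rose from 10.5 ± 3.38 to 349 ± 24.95 CPM (log2 change 5.06, SE 0.23, edgeR adjusted p = 2.52e-08). Glul, the enzyme that turns glutamate into glutamine, was abundant at birth and rose 3.99-fold, from 528 ± 26.0 to 2107 ± 404 CPM (log2 change 1.997, SE 0.15, edgeR adjusted p = 9.93e-07). Rlbp1, a retinaldehyde carrier, stood at 36.6 and 44.3 CPM at P0, 121 and 138 at P2, 360.5 and 389 at P21, and 249 and 255 at P28 (log2 change 1.89, SE 0.44, edgeR adjusted p = 0.00481). The 1 member called lower was Vim (log2 change -1.44), an intermediate filament of glia and progenitors alike, and the 4 not called were Slc1a3 (-0.71), Dkk3 (-0.58), Gpr37 (0.55) and Rdh10 (-0.71).

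Genes of cell division had the lowest list median. Of 30 mitosis genes 29 were called lower and none higher, with a median log2 change of -5.75, and their summed level was 4551 to 6563 CPM in the newborn and 145 to 178 CPM in the mature libraries. Mki67 (chr7:135689788-135716379) fell from 1202 ± 162 to 0.0683 ± 0.0518 CPM (log2 change -13.99, SE 0.34, edgeR adjusted p = 8.28e-10). Aurkb, the kinase that corrects chromosome attachment, stood at 106, 92.8, 88.4 and 96.3 CPM in the newborn libraries and 0.0332, 0.168, 0.0861 and 0.261 CPM in the mature libraries (log2 change -9.39, SE 0.29, edgeR adjusted p = 2.34e-09). Ccnb1, the cyclin that drives entry into mitosis, fell from 161 ± 34.5 to 0.361 ± 0.0562 CPM (log2 change -8.78, SE 0.22, edgeR adjusted p = 9.89e-10). Other division genes among the 12 largest falls were the kinases Pbk at 92.3 to 137 CPM in the newborn and 0 to 0.145 CPM in the mature libraries and Melk at 43.8 to 64.9 CPM in the newborn and 0.0287 to 0.135 CPM in the mature libraries. Pif1, a helicase, had a log2 change of -9.62, and Cdca5, a protector of sister chromatid cohesion, of -9.56. Depdc1a had 1 to 3 counts in the mature pool and stood at 42.9, 60.4, 25.7 and 27.7 CPM in the newborn libraries (edgeR adjusted p = 4.18e-08). The member not called was Pttg1, securin, at 9.52 to 26.7 CPM in the newborn and 13.9 to 16.4 CPM in the mature libraries (log2 change -0.30, SE 0.32, edgeR adjusted p = 0.417).

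Of 30 genes of DNA replication 29 were called lower and none higher, with a median of -2.89. Uhrf1, which keeps DNA methylation through replication, fell from 241 ± 21.3 to 0.510 ± 0.237 CPM (log2 change -8.89, SE 0.27, edgeR adjusted p = 2.36e-09). Rrm2, the ribonucleotide reductase subunit that limits nucleotide supply, fell from 126 ± 21.5 to 0.316 ± 0.132 CPM (log2 change -8.65, SE 0.27, edgeR adjusted p = 2.42e-09). Mcm3, of the replicative helicase, fell from 126 ± 25.7 to 2.07 ± 0.512 CPM (log2 change -5.93, SE 0.23, edgeR adjusted p = 8.77e-09). The member not called was Orc1, of the origin recognition complex, at 5.27 to 22.8 CPM in the newborn and 1.015 to 13.1 CPM in the mature libraries (log2 change -1.32, SE 0.74, edgeR adjusted p = 0.148). Orc1 was called without P21 replicate 2 (log2 change -2.24, edgeR adjusted p = 0.0124). The replication genes fell less than the mitosis genes on the median, and their summed level was 2803 to 3490.0 CPM in the newborn and 346 to 366 CPM in the mature libraries. Several of them also serve DNA repair, which is needed outside the division cycle, and its part in the smaller fall was not tested.

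Promoters of the 2 lists were read for sequences known in cell cycle promoters. TTTGAA, the core of the cell cycle homology region, was in 10 of 26 promoters of the mitosis genes called lower (38.5%; 24 of 29 genes matched) against 5252 of all 32851, and CCAAT was in 20 (76.9%) against 11120 (33.8%). In 29 promoters of the replication genes called lower (24 of 29 genes matched), TTTGAA was in 3 (10.3%) and CCAAT in 17 (58.6%). TTTGAA was also in 6 of 19 promoters of the bipolar genes called higher (31.6%), so its share there was close to that of the mitosis genes. One of 4 E2F sequences (TTTCCCGC, TTTGGCGC, TTTCGCGC or TTTGCCGC, which can overlap each other on the 2 strands) was in 7 of the 29 promoters of replication genes (24.1%) and 1 of the 26 of mitosis genes (3.85%), against 611 of all (1.86%). Both strands were searched. The promoters of Mki67 at chr7:135716380-135716629 (minus strand) and of Ccnb2, a mitotic cyclin, at chr9:70421555-70421804 (minus strand) carry the former 2, on either strand. That of Mcm6, a subunit of the replicative helicase, at chr1:128359706-128359955 (minus strand) carries E2F sequences. Capitals mark TTTGAA and CCAAT in Mki67 and Ccnb2 and the E2F sequences in Mcm6, where CCAAT also occurs on the other strand, unmarked:
Mki67: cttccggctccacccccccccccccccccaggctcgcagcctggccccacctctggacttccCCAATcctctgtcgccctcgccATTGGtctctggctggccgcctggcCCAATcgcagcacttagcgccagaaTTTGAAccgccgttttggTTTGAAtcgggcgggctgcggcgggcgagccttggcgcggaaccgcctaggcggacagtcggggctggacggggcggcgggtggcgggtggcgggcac
Ccnb2: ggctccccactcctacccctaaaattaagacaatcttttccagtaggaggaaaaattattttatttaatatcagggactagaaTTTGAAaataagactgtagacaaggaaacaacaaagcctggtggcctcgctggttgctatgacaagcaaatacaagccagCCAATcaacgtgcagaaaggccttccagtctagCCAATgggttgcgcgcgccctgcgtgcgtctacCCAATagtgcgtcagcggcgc
Mcm6: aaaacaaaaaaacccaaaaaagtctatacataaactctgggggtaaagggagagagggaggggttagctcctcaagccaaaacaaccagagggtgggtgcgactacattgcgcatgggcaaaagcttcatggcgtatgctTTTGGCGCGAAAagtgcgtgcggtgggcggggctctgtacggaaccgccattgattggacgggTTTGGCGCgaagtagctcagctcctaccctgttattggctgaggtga
Mki67 fell most of the mitosis list, and Ccnb2 (log2 change -6.18) and Mcm6 (-5.60) were chosen for their matches after their values were seen. The matches describe the sequence, and no factor's binding was measured.

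All 20 genes of the progenitor list were called lower, with a median of -2.51 and a summed level of 5719.7 to 6662 CPM in the newborn and 779 to 911 CPM in the mature libraries. Ccnd1, the main D cyclin of retinal progenitors, was among the most abundant genes at birth, at 3216, 2915, 2919 and 2725 CPM in the newborn libraries, and stood at 12.3, 15.3, 15.7 and 18.3 CPM in the mature libraries (log2 change -7.58, SE 0.18, edgeR adjusted p = 7.76e-10). Fgf15, a growth factor of the early retina, fell from 148 ± 87.4 to 0.142 ± 0.101 CPM (log2 change -10.004, SE 0.68, edgeR adjusted p = 1.80e-06). Gli1, a target of hedgehog signalling, fell from 83.6 ± 30.7 to 0.109 ± 0.0389 CPM (log2 change -9.54, SE 0.39, edgeR adjusted p = 1.46e-08). Hes5, which holds progenitors undifferentiated downstream of Notch, fell from 87.6 ± 30.8 to 4.61 ± 1.17 CPM (log2 change -4.25, SE 0.30, edgeR adjusted p = 7.84e-07). Sfrp2, a Wnt pathway regulator, fell from 30.6 ± 7.80 to 1.24 ± 0.201 CPM (log2 change -4.63, SE 0.22, edgeR adjusted p = 3.81e-08).

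The neurogenic list holds factors that are on for a short time as cells leave division. Of its 18 genes 14 were called lower and none higher, with a median of -3.91. Foxn4, which directs progenitors to amacrine and horizontal fates (chr5:114254164-114273807), stood at 89.0, 77.3, 86.2 and 74.0 CPM in the newborn libraries and had no count in any mature library, which makes it at least 3505-fold lower when 3 counts over the pool are taken as the floor (edgeR adjusted p = 1.04e-08). Olig2, a factor of late progenitors, stood at 26.1, 19.6, 21.9 and 21.4 CPM in the newborn libraries, again without a mature count, and was at least 959-fold lower (edgeR adjusted p = 5.73e-08). Neurod4 stood at 383 and 429 CPM at P0, 590.3 and 686 at P2, 189.9 and 184 at P21, and 244 and 213 at P28 (log2 change -1.33, SE 0.19, edgeR adjusted p = 9.84e-05), and its change against P0 alone was -0.97. The 4 not called were Neurod1 (log2 change 0.20), which photoreceptors keep, Gadd45a (0.17), Rgs16 (-0.92, called at -1.04 without P0 replicate 1) and Penk (0.38). Krt73, a keratin and no list member, was also without mature counts and at least 1211-fold lower, from 33.1, 37.0, 21.14 and 19.9 CPM in the newborn libraries (edgeR adjusted p = 5.97e-07). Counts of 0 limit these genes to the depth of the mature pool and do not show that they are absent.

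Genes of growing axons and migrating neurons were lower, 17 of 22, with none higher and a median of -1.55. Fabp7, a fatty acid binding protein of radial glia, fell from 184 ± 46.3 to 1.27 ± 0.567 CPM (log2 change -7.19, SE 0.34, edgeR adjusted p = 4.50e-08). Tubb2b, a tubulin of young neurons, fell from 668 ± 76.4 to 11.98 ± 0.939 CPM (log2 change -5.80, SE 0.13, edgeR adjusted p = 7.05e-10). Nnat, neuronatin, fell from 658 ± 82.0 to 20.4 ± 2.43 CPM (log2 change -5.01, SE 0.15, edgeR adjusted p = 1.92e-09). Dcx, doublecortin, a microtubule protein of migrating neurons, stood at 324 and 332 CPM at P0, 199.8 and 201 at P2, 12.19 and 13.4 at P21, and 17.7 and 18.7 at P28 (log2 change -4.09, SE 0.23, edgeR adjusted p = 1.37e-07). Other tubulins were among the 10 largest losses in absolute level. Tuba1a fell from 3599 ± 275 to 713 ± 47.9 CPM, Tubb5 from 2196 ± 144 to 299.8 ± 44.0 CPM and Tuba1b from 1723 ± 100.9 to 627 ± 76.6 CPM (edgeR adjusted p = 5.34e-08, 3.71e-08 and 1.99e-06), though reads of these near-identical tubulins may be split between copies. The 5 not called were Stmn3 (log2 change 0.07), Map1b (0.18), Nrcam (-0.72), Cntn2 (-0.06) and Slit1 (-0.98, called at -1.06 without P0 replicate 2, -1.04 without P2 replicate 2 and -1.05 without P21 replicate 2). Map1b, a microtubule protein of growing axons, therefore stood at 894 to 1038 CPM in the newborn and 922 to 1173 CPM in the mature libraries in the same tissue in which Dcx and Tubb2b fell.

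Genes of the protein synthesis machinery were lower as a group. Of 42 ribosomal protein genes 35 were called lower and none higher, with a median of -1.43 and a summed level of 9759.8 to 12155 CPM in the newborn and 3700.2 to 4260.0 CPM in the mature libraries. Rplp0, of the ribosomal stalk, stood at 776 and 704 CPM at P0, 754 and 658 at P2, 122 and 114 at P21, and 106 and 110.5 at P28 (log2 change -2.68, SE 0.10, edgeR adjusted p = 8.81e-09). Rps19 fell from 259.9 ± 48.5 to 46.4 ± 3.30 CPM and Rpl32 from 321 ± 43.3 to 71.5 ± 4.50 CPM (edgeR adjusted p = 1.17e-07 and 7.73e-08). Eef1a1, the factor that brings transfer RNA to the ribosome, was the largest loss in absolute level, from 6912 ± 424 to 1710.5 ± 69.6 CPM (log2 change -2.01, SE 0.12, edgeR adjusted p = 1.38e-07). Eif4g2, a translation factor, fell from 2527 ± 232 to 1220.2 ± 80.2 CPM (log2 change -1.05, SE 0.12, edgeR adjusted p = 1.70e-05), and its change was -0.99 without P0 replicate 2. Ribosomal genes and Eef1a1 have many processed copies in the genome, so their counts are uncertain where reads could be split. Miat, a long noncoding RNA, fell from 3009 ± 581 to 93.3 ± 21.3 CPM. Ptma, prothymosin alpha, fell from 1584 ± 59.2 to 279 ± 12.3 CPM, and Nedd4, a ubiquitin ligase, from 1927 ± 266 to 715 ± 46.5 CPM.

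Of 24 genes of chromatin and DNA methylation 14 were called lower and 1 higher, with a median of -1.61. Hmgb2, a chromatin protein of dividing cells, fell from 428 ± 69.3 to 27.8 ± 1.23 CPM (log2 change -3.94, SE 0.14, edgeR adjusted p = 4.43e-09). H2afz, a histone variant, fell from 533 ± 135 to 53.7 ± 8.50 CPM (log2 change -3.31, SE 0.20, edgeR adjusted p = 1.88e-07). Lmnb1, the B lamin of the nuclear envelope, fell from 383 ± 29.97 to 41.7 ± 1.49 CPM (log2 change -3.20, SE 0.10, edgeR adjusted p = 2.25e-09). Ezh1, a histone methyltransferase, was the member called higher, from 47.0 ± 5.65 to 94.4 ± 3.86 CPM (log2 change 1.008, SE 0.11, edgeR adjusted p = 1.23e-05). That change was 0.94 without P0 replicate 1, 0.99 without P21 replicate 1 and 0.997 without P21 replicate 2. Ezh2, the related enzyme of dividing cells, fell from 174 ± 42.9 to 28.7 ± 3.51 CPM (log2 change -2.60, SE 0.18, edgeR adjusted p = 4.88e-07). Of 15 genes of intrinsic apoptosis 6 were called lower and 1 higher. Bid, which links death receptors to mitochondria, had a log2 change of -1.80 (edgeR adjusted p = 1.03e-06). Xiap, an inhibitor of caspases, rose from 176 ± 29.0 to 721 ± 102 CPM (log2 change 2.04, SE 0.15, edgeR adjusted p = 7.32e-07).

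**Figure D3:**
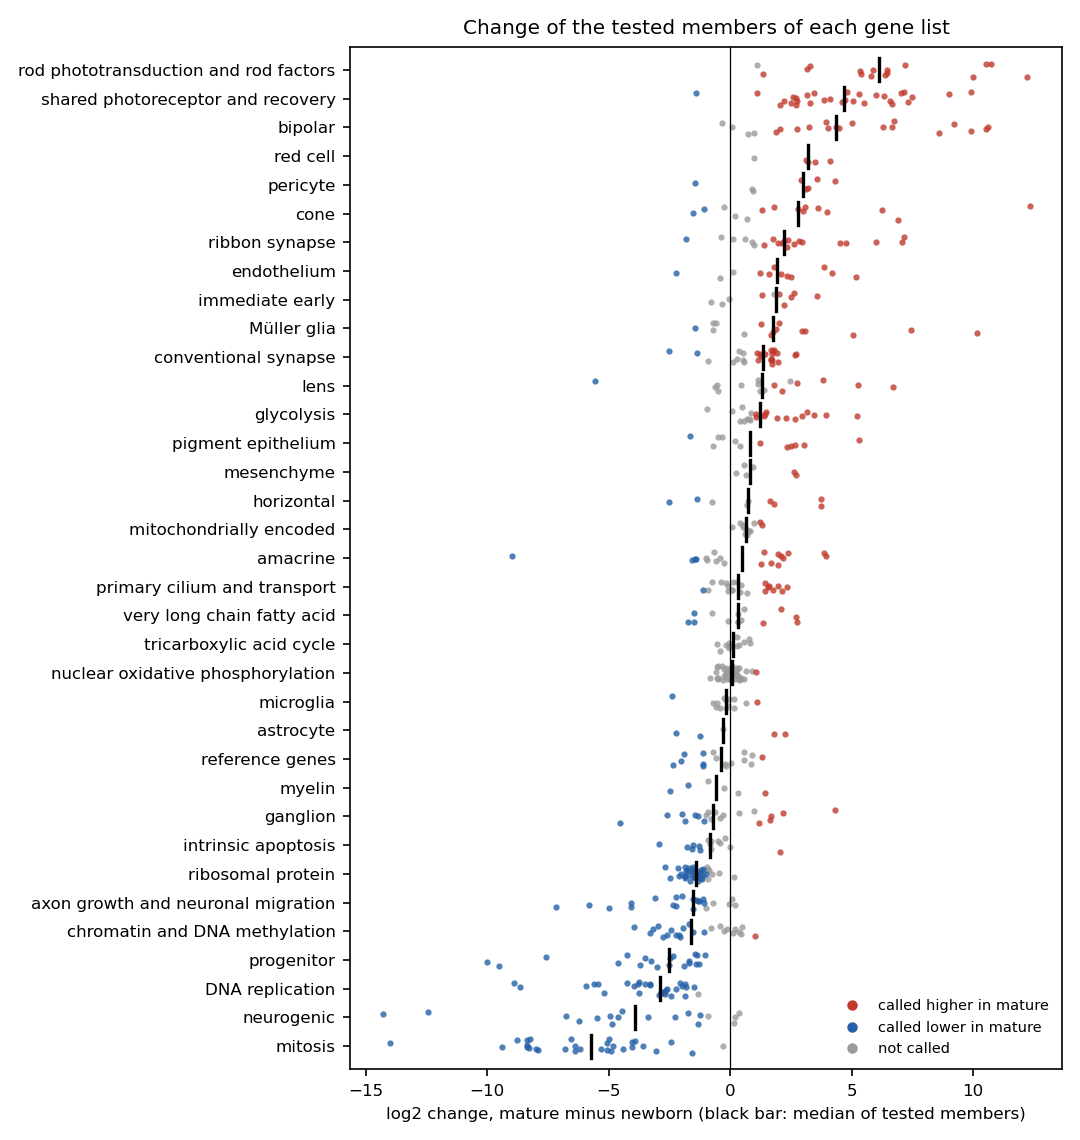
Log2 change from newborn to mature of each tested member of the 35 gene lists (points, coloured by call; vertical spread within a row is only to separate points; black bars are medians). The medians run from -5.75 for mitosis to 6.12 for the rod list, and lists such as amacrine, horizontal and ganglion have called members on both sides.

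Neurons that formed before birth had markers that moved both ways, and several of their counts were near the shares over all genes tested (20.5% higher and 17.3% lower). This holds for the ganglion genes called higher and the amacrine and horizontal genes called lower. Ganglion cells send the optic nerve to the brain, and of their 20 genes 5 were called higher, 7 lower and 8 were not called (median -0.70). Nefh, the heavy neurofilament of thick axons, rose from 5.44 ± 1.93 to 109 ± 13.4 CPM (log2 change 4.32, SE 0.25, edgeR adjusted p = 1.43e-07), as did Thy1 (log2 change 1.62), Nefl (1.18), Chrnb3 (1.70) and Nrn1 (2.16). Atoh7, the factor that lets progenitors become ganglion cells, fell from 1.001 ± 0.273 to 0.0382 ± 0.0301 CPM (log2 change -4.55, SE 0.48, edgeR adjusted p = 1.24e-05). Pou4f2, their identity factor, stood at 28.6 and 29.4 CPM at P0, 20.4 and 21.04 at P2, 7.44 and 9.27 at P21, and 10.5 and 9.25 at P28 (log2 change -1.45, SE 0.17, edgeR adjusted p = 2.40e-05). Gap43, of growing axons, fell from 149.6 ± 13.9 to 24.4 ± 2.75 CPM (log2 change -2.62, SE 0.12, edgeR adjusted p = 2.56e-08). Stmn2 fell from 337 ± 64.1 to 84.9 ± 2.88 CPM (log2 change -1.99, SE 0.14, edgeR adjusted p = 4.50e-07). The genes called higher are neurofilaments and membrane proteins, but another neurofilament gene of the list was not called (log2 change 0.35). Those called lower include the fate factors Atoh7 and Pou4f2. The 8 not called had log2 changes from -0.999 to 0.99.

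Amacrine cells modulate signals in the inner retina, and of 20 genes 10 were called higher and 4 lower (median 0.50). Slc17a8, a vesicular glutamate transporter, rose from 1.65 ± 0.186 to 25.5 ± 2.79 CPM (log2 change 3.95, SE 0.15, edgeR adjusted p = 8.77e-09). Slc5a7, the choline transporter of starburst cells, rose from 1.74 ± 0.406 to 25.3 ± 3.05 CPM (log2 change 3.85, SE 0.19, edgeR adjusted p = 4.46e-08). Gad1, which makes the inhibitory transmitter GABA, stood at 65.9 and 60.3 CPM at P0, 94.3 and 98.8 at P2, 390.5 and 384 at P21, and 313 and 279 at P28 (log2 change 2.098, SE 0.19, edgeR adjusted p = 3.33e-06). Ptf1a, the factor that sets the amacrine and horizontal fates, fell to 1 count over the mature pool from 7.77, 7.63, 4.37 and 3.91 CPM in the newborn libraries (edgeR adjusted p = 2.47e-07), and no ratio is given. The transcription factors Tfap2a (log2 change -1.44) and Prdm13 (-1.42) were also called lower. Most of those called higher encode transmitter enzymes, transporters or a calcium-binding protein, but Neurod6 (1.68) is a transcription factor. The 6 not called had log2 changes from -0.98 to -0.26, with -0.68 for the other enzyme of the list that makes GABA. In 10 of the 20 genes all 4 mature libraries lay above all 4 newborn libraries, and in 10 below (30.7% each over all genes tested). Horizontal cells, which link photoreceptors sideways, had 4 of 9 genes called higher and 2 lower (median 0.71). Gja10, a gap junction protein, rose from 0.226 ± 0.0703 to 3.03 ± 0.671 CPM (log2 change 3.72, SE 0.29, edgeR adjusted p = 1.28e-06). Calb1, calbindin, rose from 4.87 ± 2.51 to 64.4 ± 10.8 CPM (log2 change 3.72, SE 0.32, edgeR adjusted p = 2.88e-06). Onecut2, a fate factor, fell from 72.7 ± 20.6 to 12.7 ± 3.127 CPM (log2 change -2.51, SE 0.24, edgeR adjusted p = 4.85e-06), and its relative Onecut1 had a log2 change of -1.37 (edgeR adjusted p = 8.75e-05). Lhx1, their identity factor, stood at 2.35 and 3.15 CPM at P0, 6.32 and 2.47 at P2, 5.95 and 5.26 at P21, and 6.14 and 5.59 at P28 (log2 change 0.69, SE 0.30, edgeR adjusted p = 0.0624) and was called without P2 replicate 1 (1.11).

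Synapse genes rose in the main. Of 26 genes of conventional synapses 17 were called higher and 2 lower (median 1.36). Dlg4, the scaffold PSD-95, rose from 99.7 ± 35.89 to 660.3 ± 88.1 CPM (log2 change 2.73, SE 0.25, edgeR adjusted p = 3.98e-06). Camk2a, a kinase of synaptic strength, rose from 6.80 ± 1.92 to 43.1 ± 9.92 CPM (log2 change 2.66, SE 0.23, edgeR adjusted p = 2.31e-06). Snap25, of the vesicle fusion machinery, stood at 383 and 401 CPM at P0, 420.3 and 475 at P2, 1299 and 1319 at P21, and 1454 and 1434 at P28 (log2 change 1.71, SE 0.11, edgeR adjusted p = 3.10e-07). The members called lower were Nlgn1, a postsynaptic adhesion protein, from 168 ± 16.22 to 29.1 ± 1.99 CPM (log2 change -2.52, SE 0.11, edgeR adjusted p = 1.50e-08), and Stx1a (log2 change -1.36), a fusion protein. Photoreceptors and bipolar cells release glutamate at ribbon synapses, and of 21 ribbon genes 15 were called higher and 1, Rab3b (-1.83), lower (median 2.198). Cplx4, a complexin of ribbon synapses, rose from 3.06 ± 0.525 to 435 ± 26.8 CPM (log2 change 7.15, SE 0.16, edgeR adjusted p = 6.54e-10). Slc17a7, which loads glutamate into vesicles, rose from 20.2 ± 9.40 to 1295 ± 229 CPM (log2 change 6.0003, SE 0.37, edgeR adjusted p = 2.95e-07). Cabp4, a calcium-binding protein of the photoreceptor terminal, stood at 0.441 to 0.761 CPM in the newborn and 76.8 to 95.3 CPM in the mature libraries (log2 change 7.05, SE 0.18, edgeR adjusted p = 9.81e-10). The deposited table lists Cabp4 a second time, on a patch sequence, with the same values, so its reads may be split between the entries. The 5 ribbon genes not called were Ctbp2 (log2 change 0.10), Bsn (0.996, called at 1.07, 1.13, 1.03 and 1.02 without P2 replicate 1, P2 replicate 2, P21 replicate 1 or P28 replicate 2), Rims1 (0.63), Dmd (0.91) and Erc2 (-0.36).

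The outer segment is a modified cilium, and of 22 genes of cilia and their transport 8 were called higher and 1 lower (median 0.34). Those called higher were 6 genes of the BBSome, a coat that carries membrane proteins, with Kif17, a motor, and Cep290, of the gate at the base of the cilium. Bbs7 rose from 37.7 ± 7.74 to 189 ± 8.08 CPM (log2 change 2.33, SE 0.14, edgeR adjusted p = 1.86e-07). Bbs5 rose from 18.1 ± 1.78 to 70.0 ± 8.03 CPM (log2 change 1.95, SE 0.12, edgeR adjusted p = 2.24e-07). Kif17 rose from 1.27 ± 0.411 to 5.51 ± 1.15 CPM (log2 change 2.12, SE 0.28, edgeR adjusted p = 6.16e-05). None of the 13 members of the Ift family, which build the cilium, was called, at log2 changes from -0.90 for Ift27 to 0.68 for Ift20. DESeq2 called none either. An edgeR p under 0.05 before adjustment was found for 6. Most of these also passed after adjustment, Ift27 at 6.39e-05 and Ift20 at 7.6e-04 among them, and missed the call because their changes were under 2-fold. Under the alternatives the log2 change of Ift27 ran from -1.023 to -0.80, and it gained the call in 3. The member called lower was Kif3a (-1.14), a motor subunit for such transport. The outer segment membrane is rich in very long chain and polyunsaturated fatty acids, and of 14 genes of their metabolism 4 were called higher and 3 lower (median 0.33), near the shares over all genes tested (20.5% and 17.3%). Elovl4, which makes the longest chains, rose from 116 ± 7.06 to 491 ± 37.1 CPM (log2 change 2.09, SE 0.10, edgeR adjusted p = 3.09e-08). Agpat3, which puts docosahexaenoic acid into phospholipid, rose from 262 ± 120.0 to 1778 ± 185 CPM (log2 change 2.76, SE 0.30, edgeR adjusted p = 1.82e-05). Adipor1, needed for its uptake, rose from 77.1 ± 4.07 to 509 ± 24.59 CPM (log2 change 2.72, SE 0.09, edgeR adjusted p = 4.03e-09). The members called lower were Elovl5 (log2 change -1.50), Fads1 (-1.50) and Fads2 (-1.72), which act in the earlier steps of elongation and desaturation, and Acsl6 (1.35) was the remaining member called higher.

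Energy genes differed between pathways. Of 22 genes of glycolysis 13 were called higher and none lower (median 1.23). Aldoc, an aldolase, rose from 10.7 ± 4.50 to 404 ± 39.9 CPM (log2 change 5.24, SE 0.29, edgeR adjusted p = 1.37e-07). Pfkfb2, which sets the level of a glycolytic activator, rose from 52.9 ± 2.79 to 585 ± 39.5 CPM (log2 change 3.47, SE 0.10, edgeR adjusted p = 1.92e-09). Hk2, the hexokinase of photoreceptors, stood at 15.4 and 19.3 CPM at P0, 29.5 and 23.6 at P2, 239 and 383 at P21, and 422 and 314 at P28 (log2 change 3.95, SE 0.24, edgeR adjusted p = 2.34e-07). Of 41 nuclear genes of oxidative phosphorylation 1 was called higher and none lower (median 0.07), namely Ndufa4 (log2 change 1.06, or 0.92 without P28 replicate 2). None of 12 genes of the tricarboxylic acid cycle was called by edgeR or DESeq2 (median 0.11), as all changes were under 2-fold (log2 changes -0.54 to 0.80). In 6 of them the edgeR p was under 0.05 before adjustment and stayed under it after adjustment (1.96e-05 to 0.0058), so small changes were found. Of the 13 protein-coding genes of the mitochondrial genome 2 were called higher (median 0.65), near the share over all genes tested (20.5%). In 11 of the 13, however, all 4 mature libraries lay above all 4 newborn libraries, and in none below (30.7% each over all genes tested), mostly at changes under 2-fold. The summed level of the 13 was 26522 to 35976 CPM in the newborn and 39614 to 53603 CPM in the mature libraries. The 2 called higher were mt-Nd3 (log2 change 1.31, SE 0.34, edgeR adjusted p = 0.00679) and mt-Atp6 (log2 change 1.24, SE 0.47, edgeR adjusted p = 0.0428). The latter stood at 1546 and 3316 CPM at P0, 1287 and 1572 at P2, 2299 and 2082 at P21, and 6843 and 6962 at P28, so that P28 lay far above P21. The call of mt-Atp6 was lost without either P2 library, either P28 library or P0 replicate 1, at edgeR adjusted p of 0.087 to 0.12.

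For 14 pairs of related genes the ratio of the second to the first was taken in each library on the log2 scale with 0.5 CPM added. In several pairs the second is the form known from mature or postmitotic neurons, but the order has no such meaning for Ank2 and Ank1 or for Ldhb and Ldha. The ratio lay higher in all 4 mature than in all 4 newborn libraries in 12 pairs, lower in 1 and overlapped in 1. The levels of single genes lay apart in this way in 30.7% (higher) and 30.7% (lower) of all genes tested. Ratios of other pairs were not taken, so the count has no share of its own to be set against. The chloride exporter Slc12a5 against the importer Slc12a2, a balance that sets whether GABA excites or inhibits, had ratios of -1.15 to 0.05 in the newborn and 3.129 to 3.37 in the mature libraries. Only the exporter was called, rising from 48.0 ± 13.7 to 627 ± 55.9 CPM (log2 change 3.71, SE 0.20, edgeR adjusted p = 9.49e-08), while Slc12a2 stood at 57.3 to 83.1 CPM in the newborn and 59.2 to 72.6 CPM in the mature libraries. Among glycine receptor subunits Glra1 stood at 0.0630 to 0.288 CPM in the newborn and 9.90 to 12.8 CPM in the mature libraries and Glra2 at 25.4 to 30.8 CPM in the newborn and 18.7 to 25.6 CPM in the mature libraries. In the NMDA receptor Grin2a rose from 3.40 ± 0.566 to 25.2 ± 2.43 CPM (log2 change 2.89, SE 0.15, edgeR adjusted p = 7.31e-08) beside Grin2b at 20.01 to 36.3 CPM in the newborn and 30.7 to 54.7 CPM in the mature libraries. Slc12a2, Glra2 and Grin2b were not called, so these ratios moved through the second gene.

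In other pairs the first gene, the second or both changed. Lmnb1 fell while Lmna stood at 3.78 to 8.26 CPM in the newborn and 6.70 to 10.17 CPM in the mature libraries, with ratios of -6.34 to -5.55 in the newborn and -2.58 to -1.99 in the mature libraries. Ptbp1, a splicing regulator of progenitors, fell from 291 ± 11.5 to 61.6 ± 7.28 CPM and its neuronal relative Ptbp2 from 498 ± 77.8 to 189 ± 23.7 CPM, so that the ratio rose while both genes fell. Dnmt1, the maintenance DNA methyltransferase, fell from 264 ± 24.59 to 82.6 ± 7.93 CPM beside Dnmt3a at 171 to 260.5 CPM in the newborn and 188 to 255 CPM in the mature libraries. Among subunits of the BAF chromatin complex, Actl6a and Ss18 fell (log2 changes -1.36 and -1.24) and their neuronal counterparts Actl6b (-0.58) and Ss18l1 (0.12) were not called. Ezh2 and Ezh1 moved in opposite directions, with ratios of -2.27 to -1.66 in the newborn and 1.49 to 1.89 in the mature libraries. Ank1, an ankyrin, rose from 11.5 ± 5.48 to 65.1 ± 8.44 CPM beside Ank2 at 356 to 409 CPM in the newborn and 441 to 548 CPM in the mature libraries. The sodium channel Scn3a fell from 88.0 ± 26.1 to 36.7 ± 5.71 CPM while Scn2a1 stood at 37.6 to 42.6 CPM in the newborn and 52.7 to 72.3 CPM in the mature libraries (log2 change 0.63, SE 0.13, edgeR adjusted p = 0.00137). Against P2 alone the change of Scn3a was -0.83, under 2-fold. Map1a, the later relative of Map1b, had a log2 change of 0.98 and was called without P2 replicate 1 (1.06), P2 replicate 2 (1.04) or P21 replicate 1 (1.02). The pair that ran the other way was Phf10 and Dpf1, of the same BAF complex, where Dpf1 fell from 25.6 ± 4.04 to 6.37 ± 1.64 CPM (log2 change -2.01, SE 0.21, edgeR adjusted p = 9.70e-06) and Phf10 stood at 70.3 to 92.9 CPM in the newborn and 45.4 to 50.8 CPM in the mature libraries. The pair with overlapping ratios was Ldhb and Ldha, the lactate dehydrogenases.

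**Figure D4:**
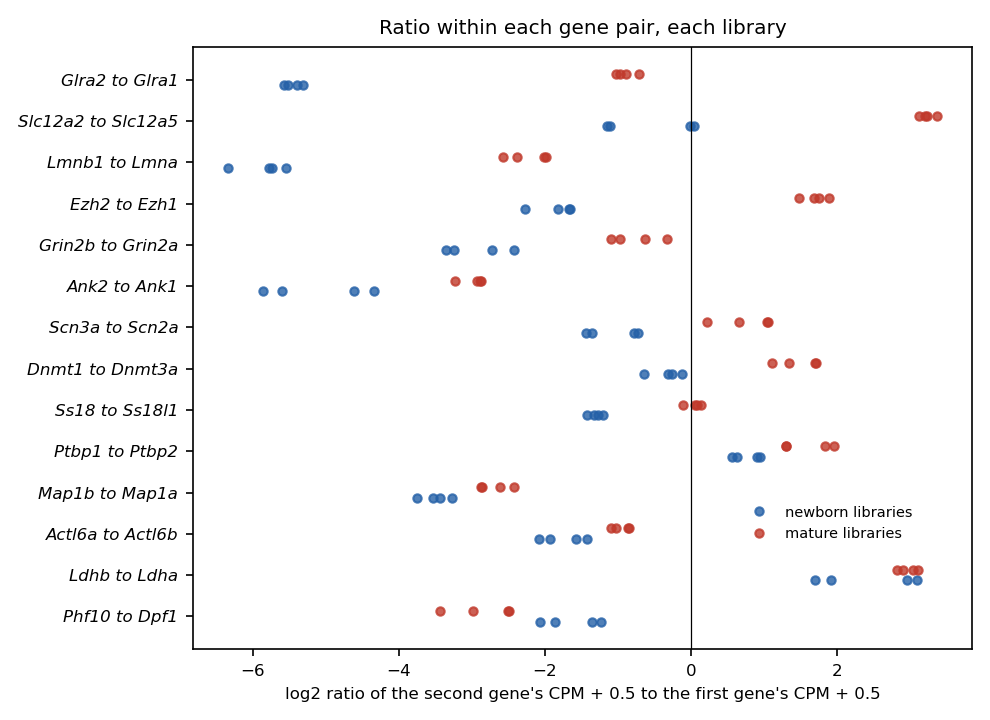
Log2 ratio of the second to the first gene of 14 pairs in each newborn and mature library (points; 0.5 CPM added to both genes; CPM are not divided by gene length, so only the shift within a pair is to be read). The shift is largest for Glra2 to Glra1, by 4.55, the pools overlap for Ldhb to Ldha, and Phf10 to Dpf1 runs the other way.

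Cells that enter the retina from outside were followed with lists of their own. Of 12 endothelial genes 9 were called higher and 1 lower (median 1.93), yet their summed level was 488 to 657 CPM in the newborn and 254 to 308 CPM in the mature libraries. Most of the newborn sum was that of Kdr, a receptor of vascular growth factor that retinal neurons can also express. It was chosen after its values were seen and stood at 492 and 457 CPM at P0, 596 and 621 at P2, 126 and 136 at P21, and 104 and 100.7 at P28 (log2 change -2.21, SE 0.14, edgeR adjusted p = 3.32e-07). Slco1c1, a thyroid hormone transporter of the blood-brain barrier, rose from 0.315 ± 0.0502 to 11.5 ± 2.28 CPM (log2 change 5.17, SE 0.23, edgeR adjusted p = 2.18e-08). Flt1, a related receptor, rose from 3.87 ± 0.130 to 71.3 ± 11.3 CPM (log2 change 4.205, SE 0.14, edgeR adjusted p = 3.97e-09). Esam, of endothelial junctions, rose from 1.11 ± 0.301 to 16.06 ± 1.42 CPM (log2 change 3.84, SE 0.21, edgeR adjusted p = 9.40e-08). Cldn5, the main tight junction protein of the vessels, stood at 6.92 and 6.78 CPM at P0, 5.23 and 4.996 at P2, 9.34 and 8.86 at P21, and 3.53 and 3.94 at P28 (log2 change 0.10, SE 0.32, edgeR adjusted p = 0.801). Egfl7, at a log2 change of -0.42, was the other member not called. Of 8 pericyte genes 5 were called higher and 1, Notch3 (-1.46), lower (median 3.02). Kcnj8, a potassium channel, rose from 0.140 ± 0.112 to 2.72 ± 0.502 CPM (log2 change 4.29, SE 0.50, edgeR adjusted p = 2.55e-05). Rgs5, a marker of pericytes, rose from 7.46 ± 1.46 to 87.8 ± 14.9 CPM (log2 change 3.55, SE 0.18, edgeR adjusted p = 4.95e-08). Acta2, smooth muscle actin, rose from 0.295 ± 0.277 to 2.63 ± 1.012 CPM (log2 change 3.19, SE 0.52, edgeR adjusted p = 3.05e-04, or 4.02 without P2 replicate 1). Red cell genes were higher in 4 of 5 tested, all of them globins, with a summed level of 6.37 to 12.6 CPM in the newborn and 64.3 to 103 CPM in the mature libraries. Hbb-bs stood at 3.05 and 3.28 CPM at P0, 4.99 and 1.47 at P2, 25.2 and 34.0 at P21, and 31.9 and 26.7 at P28 (log2 change 3.21, SE 0.30, edgeR adjusted p = 5.29e-06). The alpha globin Hba-a2 and beta globin Hbb-bt rose by 4.12 and 3.50 on the log2 scale, though near-identical globin copies share reads. The part of blood and vessel content in the vascular changes was not tested.

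Microglia, the resident immune cells, had 1 of 14 genes called higher, 1 lower and a median of -0.18. Cx3cr1, their chemokine receptor, stood at 3.71 and 4.88 CPM at P0, 6.44 and 6.02 at P2, 3.72 and 5.66 at P21, and 3.99 and 4.44 at P28 (log2 change -0.24, SE 0.21, edgeR adjusted p = 0.346). Tmem119, a marker of mature microglia, was called higher (log2 change 1.11, SE 0.33, edgeR adjusted p = 0.0128), and Fcrls lower, from 3.88 ± 0.600 to 0.713 ± 0.596 CPM (log2 change -2.41, SE 0.53, edgeR adjusted p = 0.00244). The change of Tmem119 was 0.93 without either P0 library. Of 5 astrocyte genes 2 were called higher, Aldh1l1 (log2 change 2.25) and S100b (1.78), and 2 lower, Pax2 (-2.21) and Pdgfra (-1.25), while Gfap at -0.28 was not called. Of 6 myelin genes Mobp (1.43) was called higher and Mog (-1.73) and Cnp (-2.50) lower. The mouse retina itself holds no myelin. These lists are short, and over all genes tested 20.5% were called higher and 17.3% lower.

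Tissue that can be carried along at dissection was present at low levels. The counts of its lists are to be read beside the shares over all genes tested, 20.5% called higher and 17.3% lower. Of 12 tested genes of the pigment epithelium 6 were called higher and 1, Pmel (-1.68), lower (median 0.81). The 5 not called had log2 changes from -0.72 to 0.40. The call of Pmel was lost without P2 replicate 1, P2 replicate 2 or P28 replicate 2 (edgeR adjusted p 0.0557 to 0.0659). The summed level was 34.1 to 59.0 CPM in the newborn and 95.2 to 168 CPM in the mature libraries. Rpe65, the isomerase that renews the visual pigment there, stood at 0.0317 and 0.0315 CPM at P0, 0.156 and 0.192 at P2, 0.897 and 2.83 at P21, and 4.79 and 8.12 at P28 (log2 change 5.32, SE 0.78, edgeR adjusted p = 1.67e-04). Lrat, its partner enzyme, had a log2 change of 2.67 (edgeR adjusted p = 0.00143), with pools that overlapped. Trf, transferrin, rose from 7.87 ± 0.697 to 65.4 ± 11.7 CPM (log2 change 3.05, SE 0.15, edgeR adjusted p = 4.54e-08). Its mature mean was the highest of this list, so the mature sum rested largely on Trf. The lens list had 6 of 16 tested genes called higher and 1, Birc7, at 1.02 to 1.70 CPM in the newborn and 0 to 0.0674 CPM in the mature libraries, lower. Its summed level was 8.74 to 28.6 CPM in the newborn and 33.9 to 108 CPM in the mature libraries. The median of 1.305 became 2.67 without P0 replicate 1 and 0.65 without P21 replicate 1. Crybb2, a lens crystallin, stood at 0.0635 and 0 CPM at P0, 0 and 0.0320 at P2, 7.28 and 1.48 at P21, and 1.09 and 2.26 at P28 (edgeR adjusted p = 1.11e-04), and with 3 counts over the newborn pool no ratio is given. Cryab, a small heat shock protein of lens and glia, rose from 0.565 ± 0.113 to 22.1 ± 5.35 CPM (log2 change 5.28, SE 0.24, edgeR adjusted p = 2.39e-08). Of 6 tested mesenchyme genes 2 were called higher, Postn (2.71, or 3.54 without P2 replicate 1) and Col3a1 (2.61), and their summed level was at most 19.3 CPM. The part of carried tissue in other changes was not tested, and the highest of these sums in a library was 168 CPM.

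Genes of acute activity and genes often taken as constant were read too. Of 10 tested immediate early genes 6 were called higher and none lower (median 1.90). Fos stood at 0.920 and 1.20 CPM at P0, 2.26 and 2.69 at P2, 16.9 and 15.5 at P21, and 33.7 and 18.6 at P28 (log2 change 3.59, SE 0.38, edgeR adjusted p = 1.44e-05). Its relative Fosb stood at 0.222 and 0.378 CPM at P0, 0.234 and 0.384 at P2, 1.93 and 2.26 at P21, and 1.64 and 1.94 at P28 (log2 change 2.65, SE 0.26, edgeR adjusted p = 7.76e-06). Npas4, which neuronal activity induces, stood at 0.761 and 0.662 CPM at P0, 1.37 and 1.02 at P2, 6.94 and 5.49 at P21, and 3.56 and 5.51 at P28 (log2 change 2.50, SE 0.29, edgeR adjusted p = 2.20e-05). Such genes respond within minutes to light and handling, and neither the hour nor the light at collection is stated in the labels. Of 16 common reference genes 6 were called lower and 1, Hprt (1.32), higher. Actb, cytoplasmic actin, fell from 1079 ± 58.6 to 285 ± 10.11 CPM (log2 change -1.92, SE 0.10, edgeR adjusted p = 5.03e-08), beside Eef1a1 and Tuba1a above. Mef2c, a transcription factor of mature neurons, rose from 3.92 ± 0.694 to 139 ± 18.7 CPM (log2 change 5.15, SE 0.17, edgeR adjusted p = 3.29e-09).

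The pools each span 2 ages, which were compared with 1 coefficient per age, 2 libraries against 2, so that these counts are not on a par with those of 4 libraries against 4. Between P2 and P0, 920 genes (4.77%) were called, 675 higher and 245 lower at P2. Between P28 and P21, 210 genes (1.09%) were called, 90 higher and 120 lower at P28, and this count ran from 66 to 285 when 1 library was left out. By edgeR without adjustment, 7314 and 4975 genes had p under 0.05. Cnga1 had the largest called difference among named coding genes in the newborn pool (P2 minus P0, log2 change 5.47, SE 0.17, edgeR adjusted p = 7.73e-07). Nr2e3 was also higher at P2 (log2 change 2.11, SE 0.09, edgeR adjusted p = 1.03e-05), as were Sag (log2 change 1.42, SE 0.13, edgeR adjusted p = 3.19e-04) and Otx2 (log2 change 0.95, SE 0.12, edgeR adjusted p = 0.00109). Slc6a2, a noradrenaline transporter, stood at 4.54 and 5.48 CPM at P0, 22.3 and 28.4 at P2, 1.10 and 1.04 at P21, and 0.516 and 1.25 at P28, so it was higher at P2 than at P0 and lowest in the mature pool. Rods are being born and begin to differentiate in these days, and the newborn mean of such genes is a mean over 2 unequal ages.

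In the mature pool Abcb1a, a drug efflux pump of the blood-retina barrier, stood at 0.222 and 0.158 CPM at P0, 0.234 and 0.0961 at P2, 19.3 and 19.98 at P21, and 49.0 and 85.1 at P28 and was higher at P28 (log2 change 1.77, SE 0.24, edgeR adjusted p = 0.01). mt-Atp6 and mt-Ts1, a mitochondrial transfer RNA, were higher at P28 (log2 changes 1.66 and 1.42). Other genes with large differences within a pool were pseudogenes. Gm15459 stood at 1.27 and 1.07 CPM at P0, 1.17 and 3.11 at P2, 311 and 462 at P21, and 1.66 and 1.16 at P28, so that its call as higher in the mature pool rested on P21. Gm13394 stood at 0 and 0.788 CPM at P0, 1497 and 736 at P2, 1.296 and 3.24 at P21, and 0 and 0 at P28, so that its call as lower rested on P2. Rpl10-ps1 stood at 155 and 127 CPM at P0, 178 and 141 at P2, 46.5 and 42.4 at P21, and 13.3 and 18.3 at P28. RP23-412J12.1 stood at 4.76 to 101.3 CPM in the newborn and 1.21 to 2.09 CPM in the mature libraries, and Gm21596 at 9.58 to 108 CPM in the newborn and 2.93 to 4.99 CPM in the mature libraries. Pseudogenes share sequence with their parent genes, and their counts are uncertain. The call of Gm15459 was lost without any 1 of the P0, P2 and P21 libraries (edgeR adjusted p 0.056 to 0.0787). That of Gm13394 was lost without any 1 of the P2, P21 and P28 libraries (edgeR adjusted p 0.0733 to 0.0953). mt-Ts1 was called higher in the mature pool, and this call was lost without any 1 of the P2 and P28 libraries (edgeR adjusted p 0.0618 to 0.0742).

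The 8 libraries of P4, P6, P10 and P14 show when the change between the pools took place. For called genes that averaged 20 CPM or more in their higher pool, the level at each age was set on a scale from the newborn (0%) to the mature mean (100%) on the log2 scale with 0.5 CPM added. The median share of the change was 22.1% at P4, 41.0% at P6, 73.9% at P10 and 90.2% at P14 over 1484 genes called higher, and 23.1%, 43.0%, 75.7% and 79.7% over 1901 called lower. The midpoint of the change was first passed most often at P10, by 41.6% of the higher and 40.0% of the lower genes. The lists differed in their course. Rod genes were at a median of 45.4% at P4 and 67.4% at P6, and bipolar genes at 7.33% and 34.7%, and at P10 they stood at 89.5% and 89.1%. Grm6 went from 0.133 CPM at P4 to 70.0 at P6 and 232 at P10. Müller genes stood at 8.11% at P4, 30.8% at P6 and 79.3% at P10, and Aqp4 went from 1.35 CPM at P6 to 50.6 at P10. Glul first dropped, to 249 CPM at P6, before 1895 CPM at P14.

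Among the falling lists, chromatin genes stood at 39.1% at P4 and 77.2% at P6, replication genes at 32.5% and 74.3%, and mitosis genes at 19.3% and 57.8%. Foxn4 went from 80.1 CPM at P2 to 9.13 at P4, and Ccnd1 from 2822 to 695. Progenitor genes were at 44.2% at P4 and 61.1% at P6 and reached 100% at P10. Ribosomal protein genes were still at the newborn level at P4 (-1.93%) and at 20.8% at P6, and axon growth genes stood at 4.87% and 13.6% and had gone 50.6% of the way at P14. Stmn2 and Dcx were therefore among the late genes, at 38.4% and 50.6% at P14. Hk2 was also late, at 25.4% at P14, and Mef2c at 45.9%. Otx2 ran above its newborn level first, at 1075 CPM at P4, before 271 at P14. The values between the pools are a description over 2 libraries an age, with no test.

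**Figure D5:**
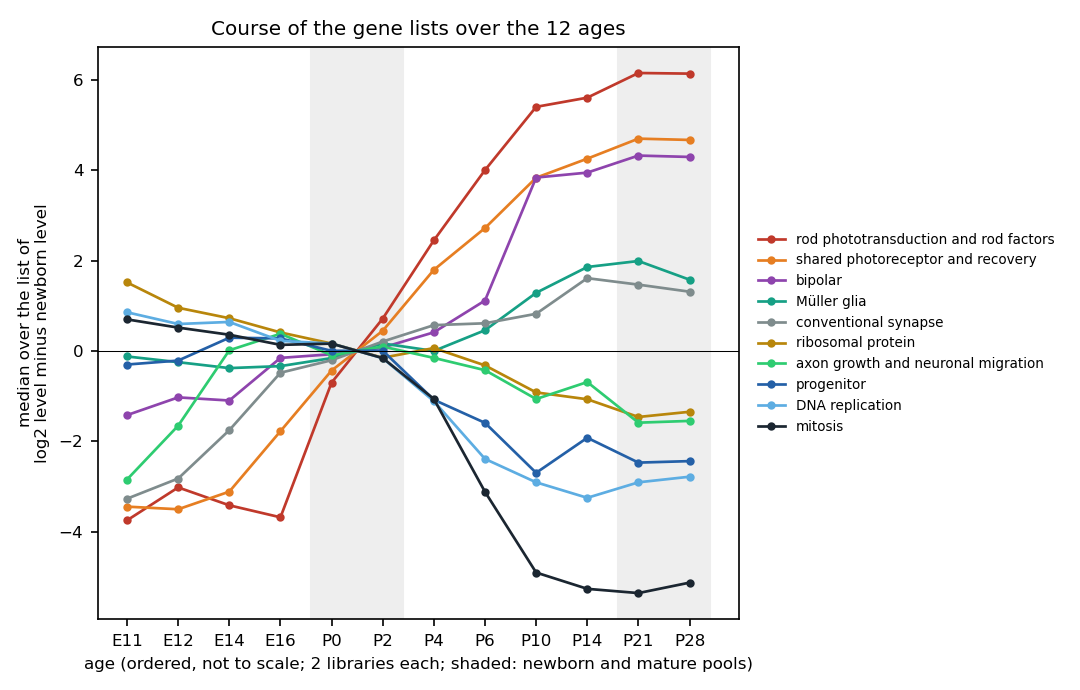
Median over the genes of 10 lists of the log2 level at each of the 12 ages minus the newborn level (lines; ages in order and not to scale; the shaded ages form the pools). The rod median runs from below 0 at E16 to near 6 at P21 and P28, the bipolar median rises mainly between P6 and P10, and mitosis and replication medians fall after P2.

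A comparison of 2 end points misses genes that return to their start. Of the genes tested, 7036 were not called and had a log2 change under 0.5 in either direction. Of these, 47 stood at an age between the pools at least 2-fold above each of the 4 ages of the pools, and 30 at least 2-fold below, at 20 CPM or more on the higher side. Abca1, a cholesterol transporter, was chosen from them after its values were seen and stood at 35.2 CPM at P0, 131 at P6 and 38.0 at P28. Cln3, a lysosomal protein whose loss causes childhood retinal degeneration, stood at 28.03 CPM at P0, 92.4 at P6 and 32.8 at P28. Both were highest between the pools and at like levels at P0 and P28.

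The classes of genes took part unequally. Of 15479 protein-coding genes 19.6% were called higher and 17.6% lower, and of 1050 long intergenic noncoding RNAs 31% and 10%. Antisense genes were called higher in 27.6% and lower in 14.6% of 872, and the libraries are directional, so they can be told from their sense partners where counting used strand, which the labels do not state. Processed pseudogenes went the other way, with 16.4% of 719 higher and 24.5% lower. By length of the gene on the genome, the longest quintile of coding genes had 22.7% called higher and 16% lower, against 20.2% and 20.8% in the shortest quintile.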

How the data were processed

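Gene expression was measured by RNA sequencing in 24 libraries of mouse retina, of which 8 were compared here. The unit is estimated counts, deposited by the authors for each Ensembl gene, which need not be whole numbers. Tools listed in the submitters' processing notes, without their roles, are kallisto 0.42.4 and edgeR 3.13.9, and the build listed is GRCm38.p5. The step from transcript to gene values is not stated there, and gene coordinates are those of the deposited table, read on that build. Depth is given with the results.

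The estimated counts were rounded and analysed with edgeR 4.0.16 in R 4.3.3. Library scaling (TMM) used all 24 libraries. Of 45594 genes, 19278 passed filterByExpr by pool at a minimum count of 10. The quasi-likelihood test had 1 coefficient per pool and 6 residual degrees of freedom, with Benjamini-Hochberg adjustment. The ages within a pool were compared with 1 coefficient per age. Standard errors (SE) were taken from the log2 change and the F statistic (its size over the root of F). SDs are over the 4 libraries of a pool. The script was tested on simulated counts. Alternatives were other scalings, filters and designs, DESeq2 1.42.0, each age alone as a pool and each library left out.

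The comparison, the 35 gene lists (644 symbols), the 14 pairs and the rule for named genes were chosen with earlier results of these data known. The rule takes the 12 largest rises and falls by log2 change and the 10 largest gains and losses in mean CPM (at least 20 CPM, pools that do not overlap), 3 called members of each list, 33 genes followed whatever their test, the pairs, and the 6 called genes that differ most within each pool. Genes outside it were chosen after their values were seen. Where a count is of few members, they are named. Not every member listed was tested, and counts are given over those tested. Some genes taken in by the rule or the lists are not reported.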

Additional observations from a re-analysis of the deposited data

Results flagged for a closer look

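In each pool of 4 libraries, the gap between the highest or lowest library and the nearest other library was set against the range of the 4 (Dixon's rule at its 95% critical value for 4 samples) for the 230 genes named here. Of 450 such groups 11 passed, and chance alone passes about 1 in 20. Abca8a stood at 0.833 CPM in P2 replicate 2 of the newborn pool and at 0 to 0.0390 CPM in the others. Ank2 stood at 441 CPM in P21 replicate 1 of the mature pool and at 534 to 548 CPM in the others. Cnga3 stood at 19.3 CPM in P0 replicate 2 of the newborn pool and at 11.7 to 12.8 CPM in the others. Cplx4 stood at 2.28 CPM in P0 replicate 1 of the newborn pool and at 3.21 to 3.39 CPM in the others. Gm15459 stood at 3.11 CPM in P2 replicate 2 of the newborn pool and at 1.07 to 1.27 CPM in the others. Ift20 stood at 39.3 CPM in P28 replicate 1 of the mature pool and at 46.5 to 47.9 CPM in the others. Kcne2 stood at 1.601 CPM in P2 replicate 2 of the newborn pool and at 0.347 to 0.429 CPM in the others. Melk stood at 0.135 CPM in P21 replicate 2 of the mature pool and at 0.0287 to 0.0332 CPM in the others. Nrn1 stood at 13.9 CPM in P0 replicate 2 of the newborn pool and at 8.62 to 8.999 CPM in the others. Scn3a stood at 45.3 CPM in P21 replicate 2 of the mature pool and at 33.4 to 34.6 CPM in the others. mt-Atp6 stood at 3316 CPM in P0 replicate 2 of the newborn pool and at 1287 to 1572 CPM in the others. P2 replicate 2 was the library that stood apart in 3 of the 11 and P0 replicate 2 in 3.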

How the results depend on the processing

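Over the alternatives that keep the call rule or tighten it, the count of genes called higher ran from 2756 (a test against a 2-fold change, with 2303 lower) to 4774 of 32564 genes without a filter on low counts (3878 lower). The call by adjusted p alone gave 6313 genes called higher in mature and 6363 genes called lower in mature, with 4720 genes called P2 vs P0 and 1473 genes called P28 vs P21. Scaling by library totals alone moved the median of all genes from 0.01 to -0.12 on the log2 scale and gave 3561 higher and 3824 lower, and DESeq2 gave 3940 and 3316. Leaving out 1 library gave 3873 to 4029 higher and 3290 to 3352 lower, 730 to 1031 between P2 and P0, and 66 to 285 between P28 and P21, where an age left with 1 library is assumed to vary like the others. For the 228 named genes with a reported change (all but Abca1 and Cln3, given by level alone), of which 180 were called, 5252 values under the alternatives kept direction and call, 76 gained the call, 39 turned sign and the rest lost the call. The list medians were followed only under the other scalings and with 1 library left out. There they kept their sign, except those of astrocyte, microglia, nuclear oxidative phosphorylation and tricarboxylic acid cycle genes, whose medians were near 0. Genes that turned sign had log2 changes from -0.42 (Egfl7) to 0.38 (Penk) as reported, other than Gm13394 and Gm15459, and the cause was not tested. Not all turned values were near 0, as those of Pttg1, Gfap, Egfl7 and Cldn5 below show. With library totals alone as scaling the log2 change was -0.00183 for Dnmt3a, -0.0427 for Lhx4, -0.0577 for Stmn3, -0.0544 for Ldhb, -0.0176 for Ctbp2, -0.00144 for Ss18l1, -0.028 for Cldn5. With 1 coefficient per age over the 8 libraries the log2 change was -0.0205 for Cldn5. With 1 coefficient per age over all 24 libraries the log2 change was -0.0206 for Cldn5. Against P0 alone the log2 change was 0.52 for Pttg1, 0.48 for Gfap, -0.0132 for Cnga3, 0.38 for Egfl7, -0.00376 for Gadd45a, -0.0972 for Cldn5, 0.0496 for Cx3cr1, 1.49 for Gm13394. Against P2 alone the log2 change was -0.0746 for Dnmt3a, 0.17 for Slc12a2, -0.17 for Lhx4, -0.0864 for Stmn3, -0.0567 for Ctbp2, -0.0755 for Neurod1, 0.21 for Cntn2. With P21 alone as mature the log2 change was -0.00894 for Dnmt3a. With P28 alone as mature the log2 change was 0.0611 for Slc12a2, -0.11 for Stmn3, -0.00159 for Ss18l1, -0.68 for Cldn5, -0.0425 for Penk, -0.23 for Gm15459. Leaving out 1 library at a time, the log2 change ran from -0.14 to 0.0575 for Cntn2, -0.15 to 0.0342 for Slc12a2, -0.0488 to 0.19 for Lhx4, -0.50 to 0.23 for Gfap, -0.00949 to 0.13 for Stmn3, -0.14 to 0.30 for Cldn5. Apart from single libraries and the test against 2-fold, the call was lost against P0 alone for Otx2, Pmel, Pdgfra, Gngt2, Neurod4, mt-Ts1, mt-Atp6 and Gm15459, against P2 alone for Eif4g2, Ezh1, Mobp, Crx, Tmem119, Scn3a, mt-Ts1, mt-Atp6, mt-Nd3 and Gm15459, with P21 alone as mature for Eif4g2, Pmel, Ndufa4, Mobp, mt-Ts1, mt-Atp6, mt-Nd3 and Gm13394, with P28 alone as mature for Ezh1, Gngt2, Crx, Tmem119, Gm13394 and Gm21596, with library totals alone as scaling for Ezh1, Ndufa4, Crx, Tmem119 and mt-Atp6, with summed transcript estimates for Eif4g2, Ndufa4 and mt-Atp6, without a filter for Pmel, mt-Ts1, mt-Atp6, Gm13394 and Gm15459, with the replicate block for Gm13394.

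The replicate numbers of the ages were checked as pairs. Deviations of same-numbered libraries from their age means had correlations of -0.12 to 0.09 between ages, so the libraries share only a number. The fit with the replicate number as a block called 3951 genes higher and 3331 lower, 903 between P2 and P0 and 189 between P28 and P21. Depth limits the genes without counts in a pool, for which 3 counts over the pool correspond to 0.0250 CPM in the newborn and 0.0232 CPM in the mature pool. Sums of the deposited transcript estimates were added as an alternative after the data were seen.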
